A study of Rattus norvegicus with 18 samples.

Results

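The genes described here encode the subunits of potassium channels and were measured by RNA sequencing in the hippocampus of rats bred for a high or a low locomotor response to a new environment. They were taken by symbol, as every gene whose symbol begins with KCN and a further letter. Of the 87 such genes, 5 known from glial, mural or choroid plexus cells were set aside (Kcnj8, Kcnj10, Kcnj13, Kcnj16 and Kcne2), which left 82 of the 20909 genes measured. By symbol prefix they comprised 29 pore subunits of voltage-gated channels, 10 electrically silent subunits, 13 auxiliary subunits, 7 pore subunits of calcium- or sodium-activated channels, 10 inward rectifiers and 13 two-pore-domain channels.

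All 18 rats were adult males, 6 in each of 3 groups. The bred High Responders (bHR) and bred Low Responders (bLR) belonged to generation F37 of selective breeding and were sacrificed at postnatal days P160-P167. The bred Intermediate Responders (bIR) came from crosses of F37 bHR with F37 bLR animals and were sacrificed at days P126-134, so that line and age cannot be told apart in any comparison with bIR. Anxiety-like behaviour was tested on an elevated plus maze at P160-P167 in bHR and bLR and at P65-75 in bIR. The age at this test, and its distance from sacrifice, cannot be told apart from line in comparisons with bIR either. No drug or mutant allele is named for any group. Litters are not named either, and each line is 1 breeding population. The p values weigh a difference of line means against the spread between these rats. They do not cover the spread between litters or between breeding populations. One library of polyadenylated RNA was made from the whole hippocampus of each rat, which mixes neurons with glia and vessels. In such tissue fewer cells of a type and less RNA per cell cannot be told apart.

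Potassium channels let potassium leave or enter a cell along its electrochemical gradient, and in neurons they set the resting potential, end each action potential and limit the rate of firing. Voltage-gated pore subunits assemble in groups around a central pore and open when the membrane depolarizes, electrically silent subunits join them without forming a channel of their own, and auxiliary subunits change their traffic and gating. Channels opened by calcium or sodium carry the current that follows a spike, inward rectifiers pass potassium most readily near rest and include the targets of inhibitory G proteins, and two-pore-domain channels give a background leak. In hippocampal pyramidal cells the Kv4 channels, with their KChIP and DPP partners, carry the fast A-type current of the dendrites.

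Levels are given as fragments-per-million values (FPM), fragments counted on a gene scaled to the size of each library. Over all genes they summed to 963461 FPM in the lowest rat (bHR) and 1026862 in the highest (bLR), so the totals were not equal. FPM is not corrected for gene length, so levels were compared between rats and not between genes. Differences are on the log2 scale, with 95% intervals, from a linear model of the 3 line means fitted with limma to all genes. Adjusted p values are Benjamini-Hochberg values over all 20909 genes, and a gene was called at an adjusted p under 0.05. The libraries held 31083118 to 66579818 counted reads, with means of 39221602 in bHR, 45509129 in bIR and 48681510 in bLR. Dentate granule cell markers summed to between 506 and 753 FPM in every library, with Prox1 among those detected. Of the 82 channel genes, 74 had at least 10 reads in all 18 libraries, 71 had a mean log2 FPM of at least 0, and 1, Kcne3, reached 10 reads in fewer than 4 libraries.

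No potassium channel gene was called in any of the 3 comparisons. Between bHR and bLR the count was 0 of 82, beside 0.445% of all genes. Between bIR and bHR it was 0 of 82, beside 0.00957% of all genes, and between bIR and bLR it was 0 of 82, beside 0% of all genes. At an unadjusted p under 0.05 the limma fit gave 10 channel genes between bHR and bLR (9.36% of all genes), 4 between bIR and bHR (5.81%) and 3 between bIR and bLR (7.29%). All 4 genes of the second comparison had a higher mean in bIR (3.13% of all genes). The exact permutation test gave 9, 3 and 4 (9.1%, 5.23% and 7.59% of all genes), and no gene of any kind passed after adjustment of its p values. The 10 genes of the first comparison were 9 with a lower mean in bHR (5.16% of all genes) and 1 with a higher mean (4.21%).

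The channel genes that stood nearest to the threshold between bHR and bLR were Kcnab2, Kcnip4 and Kcnd2, and the one that separated bIR from bHR was Kcnip3. Kcnd2 encodes the Kv4.2 pore, Kcnip3 and Kcnip4 encode KChIP calcium sensors that bind Kv4 channels, and Kcnab2 encodes a cytoplasmic beta subunit of Kv1 channels. The 250 bases before the start of 3 of these genes are shown to place them in the genome, read from RefSeq on the GRCr8 assembly and not from these rats. The values themselves were counted on Rnor_6.0. Each is written 5′ to 3′ on the strand of its gene, with every CG in capitals (the dinucleotide at which cytosine can be methylated).
Kcnab2: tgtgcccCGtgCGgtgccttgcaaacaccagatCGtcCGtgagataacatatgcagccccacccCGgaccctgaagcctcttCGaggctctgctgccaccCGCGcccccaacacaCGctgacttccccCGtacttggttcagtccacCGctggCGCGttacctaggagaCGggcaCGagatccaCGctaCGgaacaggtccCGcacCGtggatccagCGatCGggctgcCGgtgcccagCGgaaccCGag
Kcnd2: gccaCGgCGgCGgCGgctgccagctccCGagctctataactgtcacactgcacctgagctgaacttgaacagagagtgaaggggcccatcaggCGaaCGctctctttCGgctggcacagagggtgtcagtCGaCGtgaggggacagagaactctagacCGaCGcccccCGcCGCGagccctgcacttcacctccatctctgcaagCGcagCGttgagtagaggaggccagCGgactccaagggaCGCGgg
Kcnip3: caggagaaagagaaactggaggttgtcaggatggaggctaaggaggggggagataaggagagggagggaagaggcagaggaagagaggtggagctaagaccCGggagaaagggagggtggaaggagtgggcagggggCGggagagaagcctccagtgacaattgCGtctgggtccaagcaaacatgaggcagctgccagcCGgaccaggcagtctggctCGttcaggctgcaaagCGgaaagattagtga
The Kcnab2 window is chr5:168270761-168271010 on the minus strand, has a GC content of 65.2% and holds 24 CG dinucleotides. The share of all 12335 measured genes with such a window that hold at least as many was 20.7%. The Kcnd2 window, chr4:50742235-50742484 on the plus strand, has a GC content of 64.0% and holds 20, a number reached by 32.1% of all windows. The Kcnip3 window, chr3:135195411-135195660 on the minus strand, has a GC content of 58.4% and holds 6, reached by 78.4%. A CG was counted wherever the letters occur, which is the same on both strands. RefSeq windows were matched for 53 of the 82 genes (64.6%), too few to describe the set by its sequence. None of these measurements bears on methylation or on binding at these windows.

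Among the voltage-gated pore subunits, 20 of 29 had a lower mean in bHR than in bLR, with a median difference of -0.10, beside 50.5% of all genes and a median of -0.00. None was called, and 4 of 29 had an unadjusted p under 0.05 in the limma fit, beside 9.36% of all genes. The 3 Kv4 genes (prefix KCND) all lay on the lower side, with a median of -0.24. Kcnd2 was measured at 83.4, 98.1 and 114 FPM in bHR (lowest, median and highest rat), at 90.9, 109 and 117 in bIR and at 104, 117 and 127 in bLR. The ranges of all 3 lines overlapped, with the bIR median between those of bHR and bLR. The difference between bHR and bLR was -0.24 (95% interval -0.41 to -0.07, limma adjusted p = 0.304, exact permutation p = 0.0195 before adjustment), and the bHR rat was the higher one in 3 of the 36 pairs of 1 bHR and 1 bLR rat. Kcnd1, which encodes Kv4.1, was measured at 3.63, 5.93 and 8.27 FPM in bHR, 4.81, 7.22 and 8.22 in bIR and 6.33, 7.97 and 9.26 in bLR. Here too the bHR rats reached down furthest and overlapped with bLR, and the difference was -0.42 (-0.77 to -0.08, limma adjusted p = 0.398). The lowest value of Kcnd1, as of Kcnd2, was that of rat HR_2. The difference was -0.28 for Kcnd1 and -0.19 for Kcnd2 without rat HR_2. It was -0.52 and -0.28 without rat HR_26, the other end of the range when each rat was left out. With the mean of 8 pan-neuronal markers as a covariate, a fit chosen after seeing the data, the differences were -0.09 for Kcnd2 and -0.10 for Kcnd1 (limma adjusted p = 0.577 and 0.766), and with depth as a covariate that of Kcnd1 was -0.28. Kcnd3, the third Kv4 pore gene, was measured at 82.4, 88.7 and 103 FPM in bHR, 76.6, 101 and 106 in bIR and 76.8, 97.5 and 105 in bLR. Its ranges nearly coincided, with a difference of -0.07 (-0.25 to 0.11).

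**Figure D1:**
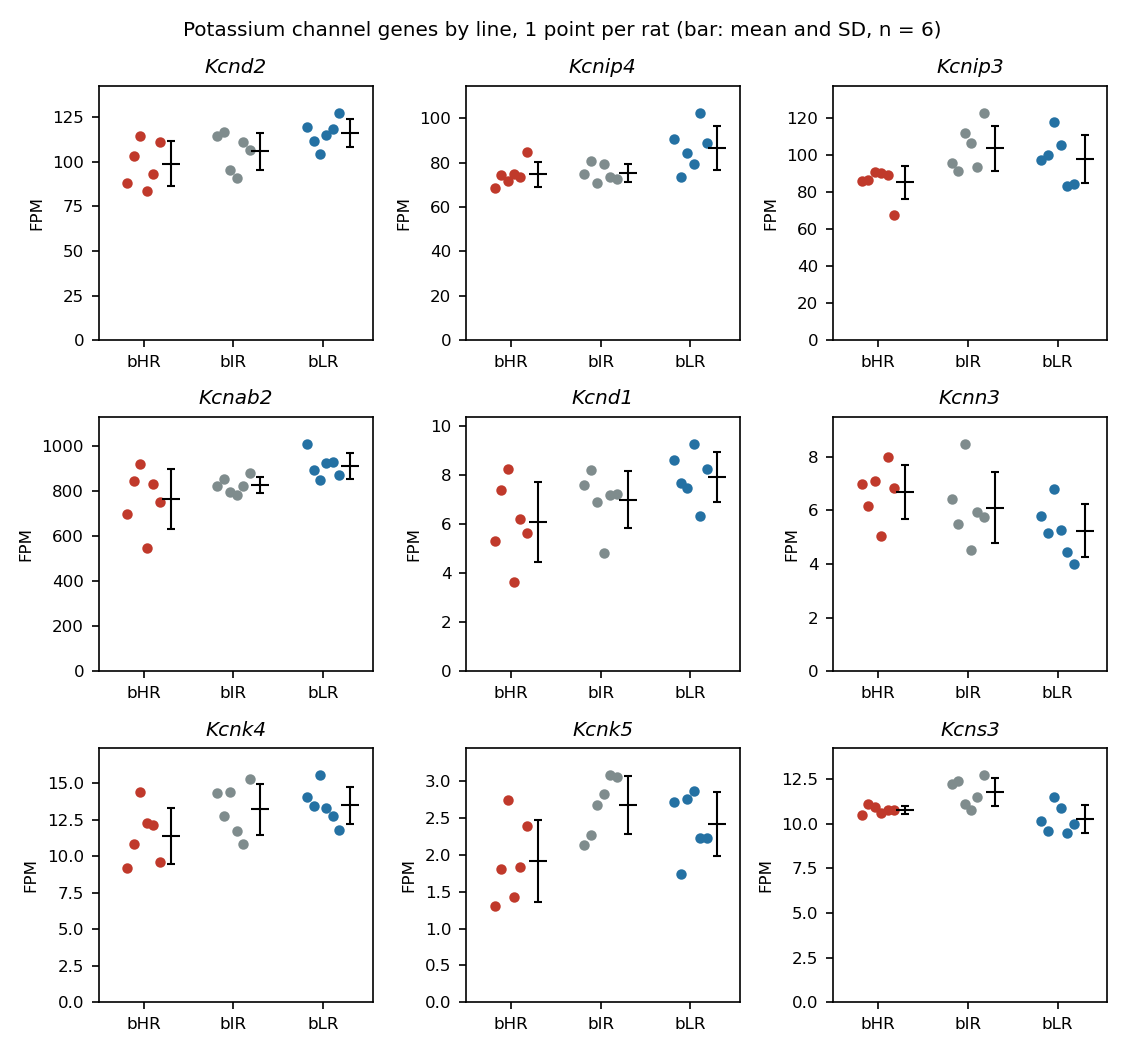
Level of 9 potassium channel genes in FPM (linear vertical axis from 0) in each rat of the 3 lines, 1 point per rat, with the mean and SD of 6 rats as a bar beside the points. In the Kcnip3 panel the lowest bIR rat (91.7) lies just above the highest bHR rat (90.9), whereas bHR and bLR overlap in every panel.

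The ether-a-go-go family (prefix KCNH) had 6 of 8 members with a lower mean in bHR, with a median of -0.10. Kcnh4, a pore gene of the elk branch, was measured at 1.64, 2.63 and 3.05 FPM in bHR, 2.74, 2.89 and 4.78 in bIR and 2.60, 3.27 and 4.48 in bLR. The bHR rats reached lower than the other lines and overlapped with both. The difference was -0.43 between bHR and bLR (-0.83 to -0.04, limma adjusted p = 0.466) and 0.45 between bIR and bHR (0.06 to 0.84, limma adjusted p = 0.842). These comparisons share the bHR rats. Kcnh6, of the erg branch, was measured at 2.24, 2.90 and 3.38 FPM in bHR, 2.27, 3.11 and 4.45 in bIR and 2.80, 3.91 and 4.21 in bLR, a difference between bHR and bLR of -0.34 (-0.68 to -0.01, limma adjusted p = 0.527). Kcnh2, the erg channel gene known from the heart, had a difference of -0.06 (-0.33 to 0.21) and medians of 14.6, 15.6 and 15.7 FPM in bHR, bIR and bLR.

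The KCNQ genes, whose neuronal members carry the M-current that holds neurons below threshold and shuts off under muscarinic receptors, had 4 of 5 members with a lower mean in bHR, and none was called. Kcnq3 was measured at 49.9, 84.0 and 98.6 FPM in bHR, 64.7, 77.0 and 102 in bIR and 77.7, 86.3 and 103 in bLR. All 3 lines overlapped for Kcnq3, with a difference of -0.17 (-0.45 to 0.11).

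The Shaker genes (prefix KCNA), whose products sit on axons and terminals, were near 0 as a group, with 3 of 7 lower in bHR and a median of 0.03. Kcna2 was measured at 135, 191 and 213.1 FPM in bHR, 156, 187 and 239 in bIR and 135, 189 and 201 in bLR. The medians of the lines were close to one another. The difference between bHR and bLR was 0.04 (-0.20 to 0.29). Kcna1 (-0.12, from -0.44 to 0.20) and Kcna4 (-0.16, from -0.43 to 0.10) likewise overlapped between the lines.

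The Kv3 genes (prefix KCNC), which let interneurons fire fast, had a higher mean in bIR than in both other lines for all 4 members. The medians were 0.14 against bHR and 0.09 against bLR, and none was called. Kcnc1 had a difference of 0.22 between bIR and bHR (-0.02 to 0.46), and Kcnc2 one of 0.06 (-0.08 to 0.21). Kcnc2 was among the steadiest of the genes, at 102, 117 and 124 FPM in bHR, 109, 119 and 136 in bIR and 107, 114 and 127 in bLR.

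The electrically silent subunits had 6 of 10 members with a lower mean in bHR than in bLR and a median of -0.02. Kcns3, which encodes the silent subunit Kv9.3 that joins Kv2 channels, was measured at 10.5, 10.8 and 11.1 FPM in bHR, 10.8, 11.9 and 12.7 in bIR and 9.48, 10.1 and 11.5 in bLR. The bIR rats lay highest and overlapped with both other lines by a small margin. The difference between bIR and bLR was 0.20 (0.05 to 0.36, limma adjusted p = 0.598, exact permutation p = 0.0130 before adjustment), and that between bIR and bHR was 0.13 (-0.03 to 0.28). Its spread within lines, an SD of 0.09 on the log2 scale, was the smallest of the 82 genes.

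The auxiliary subunits were split, with 6 of 13 lower in bHR and a median of 0.01, but held the members nearest to the threshold. Kcnab2 was measured at 547, 789 and 918 FPM in bHR, 780, 823 and 878 in bIR and 847, 908 and 1007 in bLR. The bHR rats spread widely and reached into the bLR range. The bIR rats fell within a narrow band that lay inside the bHR range and overlapped that of bLR. The difference between bHR and bLR was -0.27 (-0.46 to -0.08, limma adjusted p = 0.286, exact permutation p = 0.0173 before adjustment), and it was -0.18 (limma adjusted p = 0.457) without rat HR_2, the rat at 547 FPM, and -0.14 with the pan-neuronal covariate. The other beta subunits had smaller differences, -0.06 for Kcnab1 and 0.01 for Kcnab3. Kcnab1 was measured at 193, 201 and 233 FPM in bHR, 176, 198 and 210 in bIR and 209, 214 and 230 in bLR, so that bIR and bLR touched at 1 end. The difference between bIR and bLR was -0.15 (-0.28 to -0.02, limma adjusted p = 0.635, exact permutation p = 0.00866 before adjustment).

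Of the KChIP genes, Kcnip3 and Kcnip4 had lower means in bHR than in bLR, while Kcnip1 (0.12) and Kcnip2 (0.08) had higher ones. Kcnip4 was measured at 68.4, 74.1 and 85.0 FPM in bHR, 70.9, 74.0 and 80.9 in bIR and 73.6, 86.6 and 102 in bLR. The bHR and bIR rats covered nearly the same range, and the highest bLR rats lay above it. The difference from bLR was -0.21 in bHR (-0.36 to -0.06, limma adjusted p = 0.301) and -0.19 in bIR (-0.34 to -0.04, limma adjusted p = 0.598), 2 comparisons that share the bLR rats. Kcnip3, also called DREAM or calsenilin and described as a transcriptional repressor besides its role at Kv4, was measured at 68.1, 88.3 and 90.9 FPM in bHR, 91.7, 101 and 123 in bIR and 83.7, 99.1 and 118 in bLR. Every bIR rat lay above every bHR rat. Between bIR and bHR, Kcnip3 was the only channel gene without overlap, 1 of 82 beside 0.268% of all genes (0.139% with bIR higher). In the other comparisons 0 of 82 did not overlap, beside 0.909% of all genes between bHR and bLR and 0.507% between bIR and bLR. The Kcnip3 difference between bIR and bHR was 0.28 (0.09 to 0.47, limma adjusted p = 0.792). Its exact permutation p was 0.00216 before adjustment, the smallest that 924 splits allow, and 0.808 after. Any gene without overlap gets this smallest p, so it only restates the lack of overlap. Without rat HR_38, the lowest, the difference was 0.22. Kcnip3 also had an unadjusted p under 0.05 between bHR and bLR in the limma fit (9.36% of all genes). There, leaving out each rat gave differences of -0.24 (without rat LR_48) to -0.13 (without rat HR_38). Between bIR and bLR the Kcnip3 difference was 0.08.

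The calcium- and sodium-activated pore subunits had 4 of 7 members with a higher mean in bHR than in bLR and a median of 0.09. Kcnn3, which encodes the small-conductance channel SK3, was measured at 5.04, 6.92 and 8.00 FPM in bHR, 4.52, 5.86 and 8.47 in bIR and 4.00, 5.21 and 6.82 in bLR. The lines overlapped over most of their ranges, with the bLR rats reaching lowest. The difference between bHR and bLR was 0.36 (0.05 to 0.67, limma adjusted p = 0.440). Kcnn2, which encodes SK2 of the spine heads, had a difference of 0.09 (-0.15 to 0.33). Kcnma1, the pore of the BK channel opened by both calcium and voltage, was measured at 32.5, 52.9 and 73.2 FPM in bHR, 44.1, 50.5 and 72.6 in bIR and 41.9, 57.0 and 60.5 in bLR. The bHR rats included both the lowest and the highest level. The difference was -0.05 (-0.36 to 0.26), and Kcnmb4, the neuronal BK beta subunit, had one of -0.00 (-0.17 to 0.17). Kcnt1, a sodium-activated channel, had a difference of 0.17 (-0.11 to 0.45).

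The inward rectifiers had 7 of 10 members with a lower mean in bHR than in bLR and a median of -0.09. None had an unadjusted p under 0.05 in the limma fit, beside 9.36% of all genes. The G protein-gated GIRK genes Kcnj3, Kcnj6 and Kcnj9, through which receptors such as GABA-B quiet pyramidal cells, had differences of -0.10, -0.18 and -0.09. Kcnj6 was measured at 76.8, 130 and 182 FPM in bHR, 102, 142 and 198 in bIR and 111, 154 and 166 in bLR. The bHR rats spanned more than the whole bLR range, and the 95% interval of the difference ran from -0.52 to 0.16. Kcnj11, the pore of the ATP-sensitive channel, had medians of 17.3, 18.4 and 17.9 FPM in bHR, bIR and bLR and a difference of -0.08 (-0.35 to 0.19).

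The two-pore-domain channels had 10 of 13 members with a lower mean in bHR than in bLR and a median of -0.13, and 10 of 13 with a higher mean in bIR than in bHR and a median of 0.18. Kcnk4, which encodes the mechanosensitive channel TRAAK, was measured at 9.22, 11.5 and 14.4 FPM in bHR, 10.8, 13.5 and 15.3 in bIR and 11.8, 13.4 and 15.5 in bLR. The lines overlapped, with a difference between bHR and bLR of -0.25 (-0.48 to -0.02, limma adjusted p = 0.480). Kcnk5, the alkali-activated TASK-2 gene, was measured at 1.30, 1.82 and 2.74 FPM in bHR, 2.13, 2.75 and 3.08 in bIR and 1.73, 2.48 and 2.86 in bLR. Here the bHR rats reached lowest, and the difference between bIR and bHR was 0.51 (0.13 to 0.90, limma adjusted p = 0.792). The leak channel genes Kcnk1 (-0.09, from -0.31 to 0.13) and Kcnk9 (0.06, from -0.25 to 0.38) had intervals between bHR and bLR that covered 0. Kcnk6, named after its values were seen, also had an unadjusted p under 0.05 between bHR and bLR, but rested on 1 to 24 reads per library. Its levels were 0.0385, 0.158 and 0.336 FPM in bHR and 0.173, 0.245 and 0.488 in bLR, a difference of -1.06 (-2.05 to -0.07, limma adjusted p = 0.489).

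**Figure D2:**
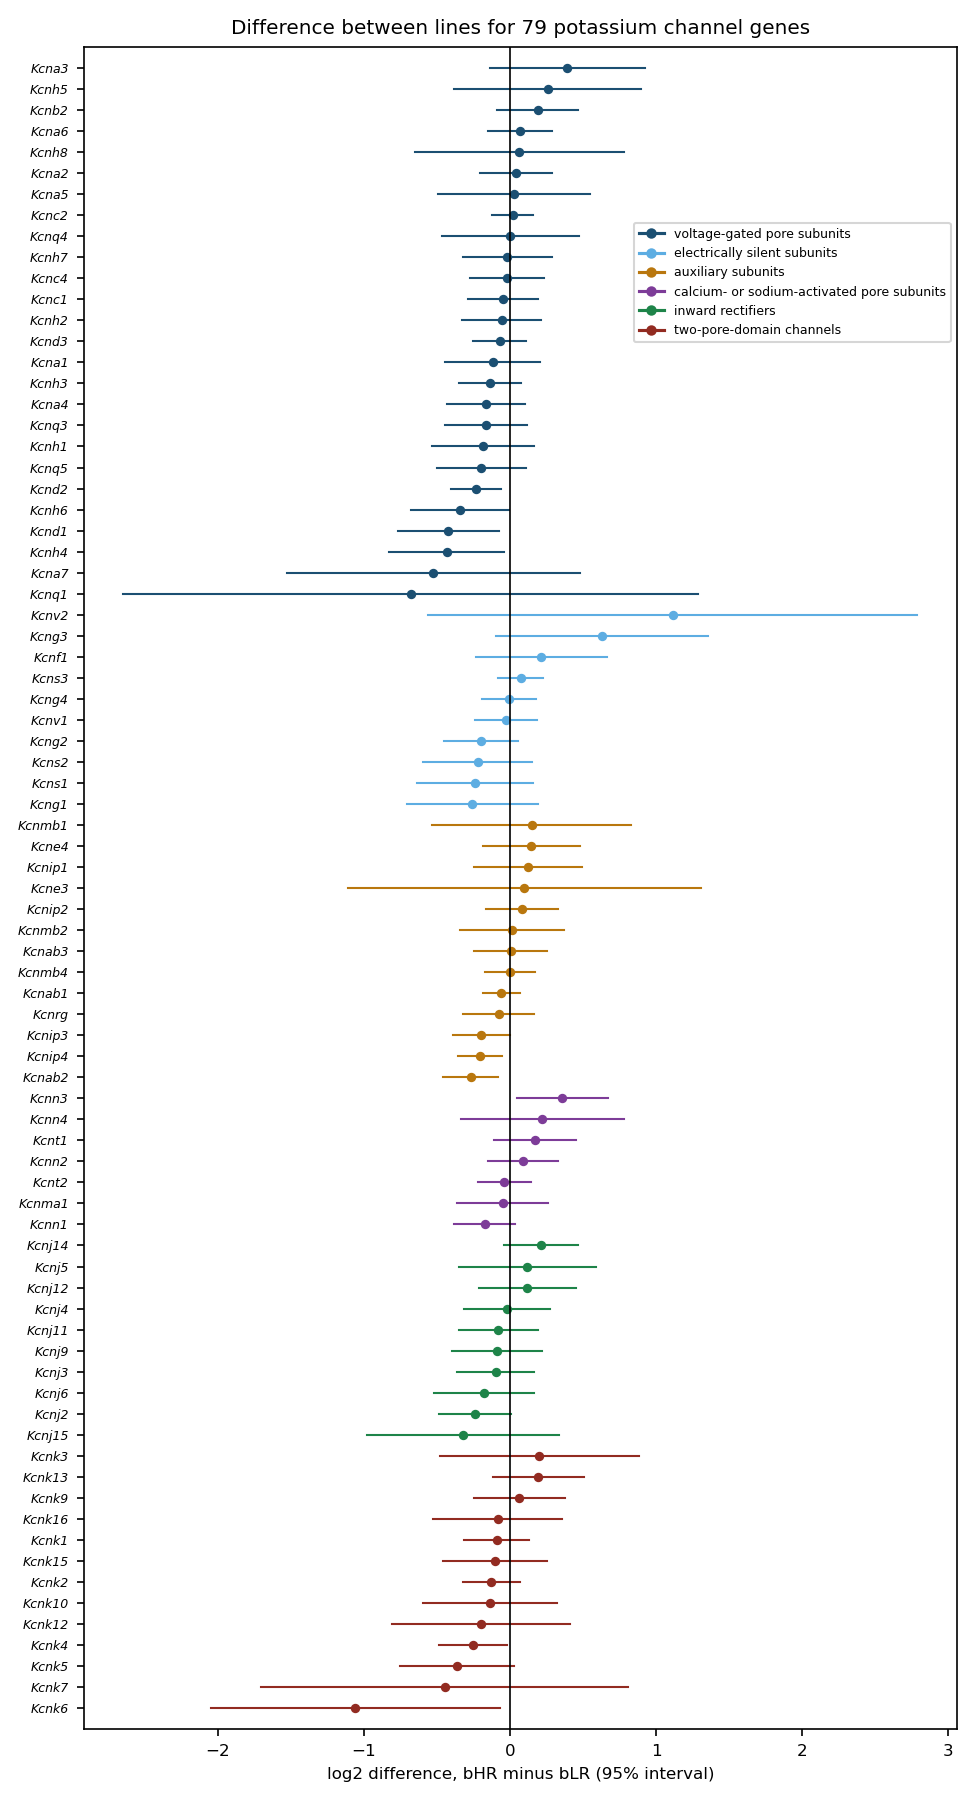
Difference between bHR and bLR on the log2 scale for 79 of the 82 genes (points) with its 95% interval (lines), 6 rats per line, grouped by colour into the 6 classes. No gene was called, the points spread on both sides of 0 with 49 of the 79 below it, and the intervals are widest for Kcnq1 and Kcnv2.

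Over all 82 genes, 52 had a lower mean in bHR than in bLR (63.4%, beside 50.5% of all genes) and the median difference was -0.07. Against bHR, 52 had a higher mean in bIR (52.4% of all genes), with a median of 0.06 beside 0.01 over all genes. That median was 0.21 without the 4 rats of highest Ttr (HR_38, IR_213, IR_248 and IR_261, of which 3 are bIR rats), -0.05 with the mean of 8 pan-neuronal markers as a covariate, 0.01 without rat HR_2 and 0.11 without rat HR_26. Between bIR and bLR they divided 41 to 41 (50.6% of all genes had a higher mean in bIR), with a median of 0.01. Ordered by line mean, 26 genes ran from bLR through bIR down to bHR (31.7%, beside 19.4% of all genes) and 15 ran from bHR through bIR down to bLR (18.3%, beside 17.5%). A further 19 were highest in bIR and lowest in bHR (23.2%, beside 15.97%). These are descriptions, because genes of 1 library are not independent of each other. The interval of the difference between bHR and bLR lay within 0.5 of 0 for 50 of 82 genes (58.1% of all genes) and within 1 of 0 for 75 (77.6%). For those 75 a change of 2-fold or more lies outside the interval. The other 7 (Kcna7, Kcne3, Kcng3, Kcnk6, Kcnk7, Kcnq1 and Kcnv2) had wider intervals, on 0 to 45 reads per library apart from Kcnq1 in 2 rats and Kcnv2 in 1.

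The summed level of the 82 genes was 2863, 3717 and 4282 FPM in bHR (lowest, median and highest rat), 3320, 3846 and 4279 in bIR and 3556, 3962 and 4197 in bLR. The bHR rats spanned the range of both other lines. Of all reads, between 0.285% and 0.443% fell on these genes. The rats of a line differed among themselves by more than the lines did. Measured as each rat's median deviation of the 82 genes from their means over all rats, bHR averaged -0.03 ± 0.12 (SD, n = 6), bIR 0.02 ± 0.14 and bLR 0.02 ± 0.10. The rat that stood lowest was rat HR_2, at -0.22, which had the lowest value of all 18 rats for 22 of the 71 genes with a mean log2 FPM of at least 0 (14.6% of all such genes). The rat that stood highest was rat IR_149, at 0.25, which had the highest value for 19 of the 71 (6.70% of all such genes). Next came rat HR_26 at 0.15 and rat IR_293 at 0.13 on the higher side and rat LR_48 at -0.15 on the lower side.

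**Figure D3:**
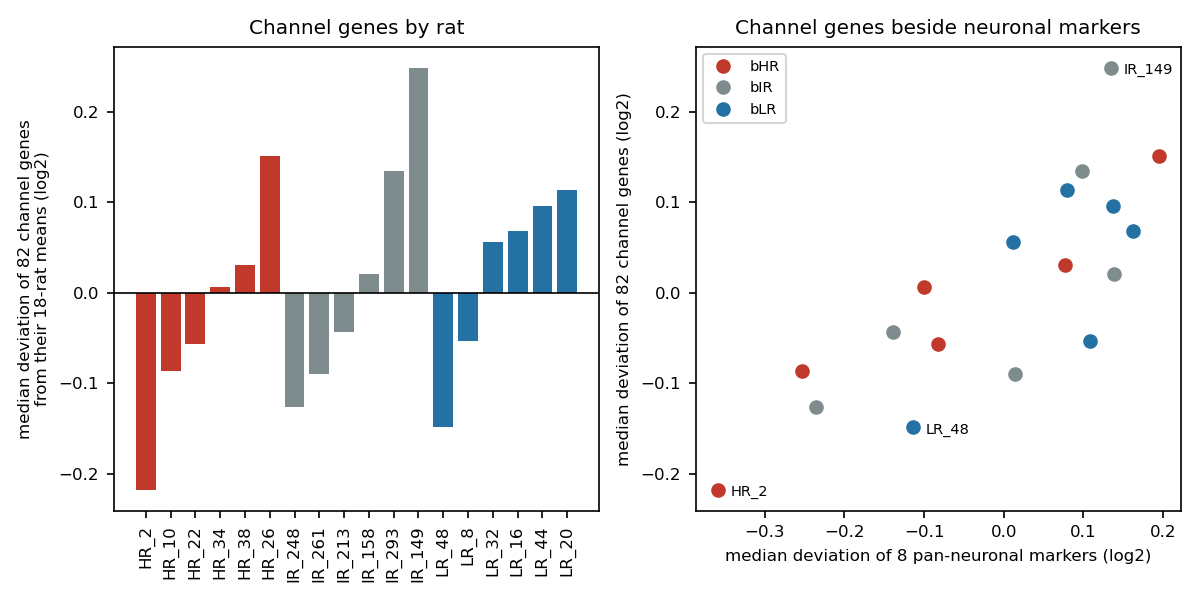
Left, the median deviation of the 82 potassium channel genes from their means over 18 rats (log2) as 1 bar per rat, coloured by line. Right, the same deviation (vertical axis) against that of the 8 pan-neuronal markers (horizontal axis), 1 point per rat, with HR_2 (-0.22) at the lower left and IR_149 (0.25) at the top, and each line with rats on both sides of 0.

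By the median of each class, the low and high rats did not shift all classes alike. In rat HR_2 the inward rectifiers deviated by -0.41 and the voltage-gated pores by -0.35, while the auxiliary subunits stood at 0.00. That median hides members on both sides, since Kcnab2 was at its lowest in rat HR_2 (547 FPM) and Kcnip1 at its highest (45.6 FPM). The summed level of the auxiliary subunits was lowest there too, at 1049 FPM, beside lowest sums of 1272 in bIR and 1371 in bLR. In rat LR_48 the same 2 pore classes deviated by -0.29 and -0.21 and the auxiliary subunits by 0.16. In rat IR_149 the inward rectifiers stood at 0.37, the voltage-gated pores at 0.26 and the auxiliary subunits at -0.01. Markers of other kinds differed in these rats as well. The 8 pan-neuronal markers deviated by -0.36 in rat HR_2, by -0.11 in rat LR_48 and by 0.13 in rat IR_149, and 43 genes of sodium, calcium and HCN channels deviated by -0.35, -0.24 and 0.28. Tcf7l2, a gene of the adjacent thalamus, was at 23.3 FPM in rat HR_2 and 19.9 in rat LR_48, and the median deviation of the 6 thalamus markers measured was 0.62 and 0.32 in these rats. Of the 6, 5 lay above their mean over all rats in rat HR_2 and 6 in rat LR_48, and 3 were at their highest in rat HR_2 (Tcf7l2, Ramp3 and Calb2). Lhx9 was below its mean in rat HR_2, and Prkcd, at 34.3 FPM there, was higher in 2 other rats. Rora, read beside Tcf7l2 and Prkcd but not among the 6, went the other way. It was at 0.849 FPM in rat HR_2, the lowest of all rats, at 1.25 in rat LR_48 and at most 2.40 in any rat. rat HR_2 also had one of the smaller libraries, at 31350533 reads. The part of each in the channel values was not tested beyond the refits that follow.

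Between the lines, all 8 pan-neuronal markers had a lower mean in bHR than in bLR, with a median of -0.18 and none called, and their summed level was 5507 to 6361 FPM in bHR and 6197 to 6903 in bLR. The 10 astrocyte markers all had a higher mean in bHR, with a median of 0.19 and none called. Of the dentate granule cell markers, 9 of 10 had a lower mean in bHR (median -0.27, none called), and of the CA3 markers 7 of 7 (median -0.28, with Prss35 called). The CA1 markers were divided, with 4 of 7 lower (median -0.14, with Dkk3 called), and 9 of 12 interneuron markers had a higher mean in bHR (median 0.10, none called). Lower means in bHR were also counted for 9 of 10 microglia markers (median -0.24, with C1qb called), 5 of 6 endothelial markers (median -0.28) and 7 of 8 mural cell markers (median -0.21), and for 2 of 10 oligodendrocyte markers (median 0.11). With the mean of the pan-neuronal markers as a covariate, a fit chosen after the data were seen, the median difference of the channel genes between bHR and bLR was 0.10 in place of -0.07, with 30 lower. Without rat HR_2 it was -0.03, without rat LR_48 -0.12, and without both -0.06. With depth as a covariate it was -0.02. The count of channel genes called was 0 in each of these fits. At an unadjusted p under 0.05 it was 11 with the pan-neuronal covariate (12.9% of all genes), 8 without rat HR_2 (8.25%) and 9 without both rats (8.59%).

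The rats of a line were spread more widely for the median channel gene than for the median gene. The median SD within lines was 0.27 on the log2 scale over the 82 genes and 0.24 over all genes, and among genes with a mean log2 FPM of at least 0 it was 0.25 and 0.19. At the upper quartile the order was reversed. The lower and upper quartiles were 0.20 and 0.36 over the 82 genes and 0.15 and 0.52 over all genes. From the lowest to the highest of the 18 rats the median channel gene differed 2.01-fold and the median gene 1.87-fold. The 3 channel genes of largest SD at that level were Kcnh8, Kcnk3 and Kcnh5. Kcnh8, of the elk branch, ran from 0.340 FPM in rat IR_213 to 1.92 in rat HR_38. Kcnk3, the acid-sensitive TASK-1 gene, ran from 0.574 in rat LR_8 to 2.04 in rat LR_20, both ends in 1 line. Kcnh5, of the eag branch, ran from 0.713 in rat IR_261 to 3.37 in rat HR_26. At the other end, after Kcns3, stood Kcnab1, Kcnc2 and Kcnip4, with SDs of 0.10, 0.11 and 0.12.

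**Figure D4:**
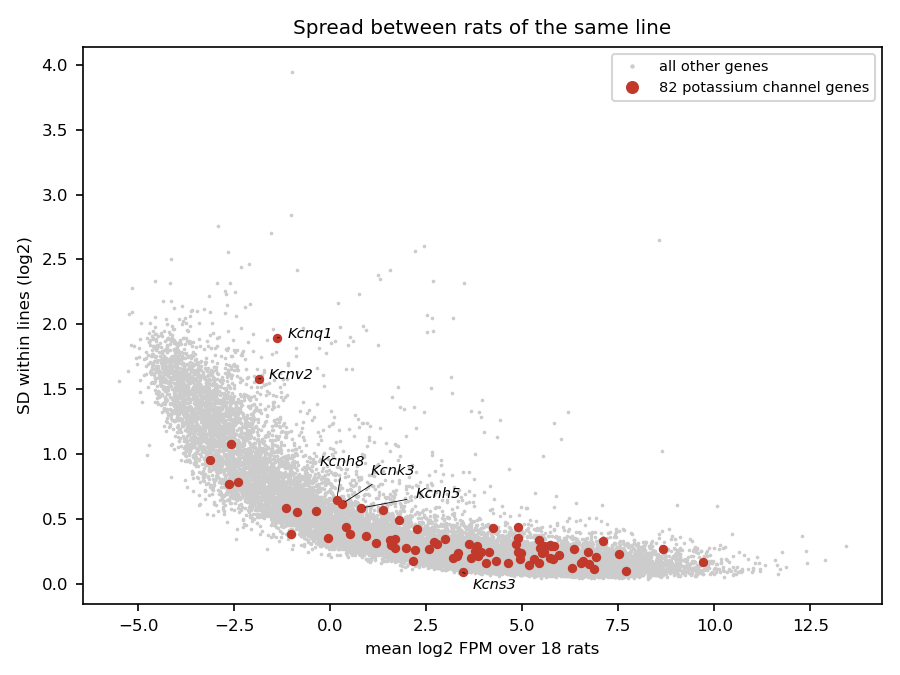
SD between rats of the same line on the log2 scale (vertical axis) against the mean log2 FPM over 18 rats (horizontal axis), 1 point per gene, with the 82 potassium channel genes in red over all other genes in grey. Kcnq1 stands above the genes of like level at an SD of 1.89, and Kcns3 lies at the low edge at 0.09.

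Kcnq1, described here after its values were seen, had the largest spread of all the channel genes, with an SD of 1.89. It encodes the pore of the slow cardiac delayed rectifier and is also known from choroid plexus epithelium, where it pairs with Kcne2. It was measured at 5.04 FPM (185 reads) in rat IR_213 and 3.84 FPM (180 reads) in rat IR_261, and at no more than 0.776 FPM in any other rat. The same 2 rats had the highest levels of the choroid plexus gene Ttr, 11994 and 13406 FPM, and of the set-aside genes Kcne2 (98.6 and 118 FPM) and Kcnj13 (155 and 128 FPM). The next highest Ttr levels, 4172 FPM in rat HR_38 and 3397 FPM in rat IR_248, went with 0.776 and 0.761 FPM of Kcnq1. At the lowest Ttr level, 61.1 FPM in rat HR_22, Kcnq1 was at 0.629 FPM. All 15 choroid plexus markers had a higher mean in bIR than in bHR (median 1.22) and than in bLR (median 1.46), with none called. The Kcnq1 difference between bIR and bHR was 1.88 (-0.09 to 3.84, limma adjusted p = 0.857), and over the refits it ran from 0.60 to 2.51. Kcnv2, a silent subunit known from photoreceptors, had the next largest SD, 1.58, on 0 to 89 reads per library.

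**Figure D5:**
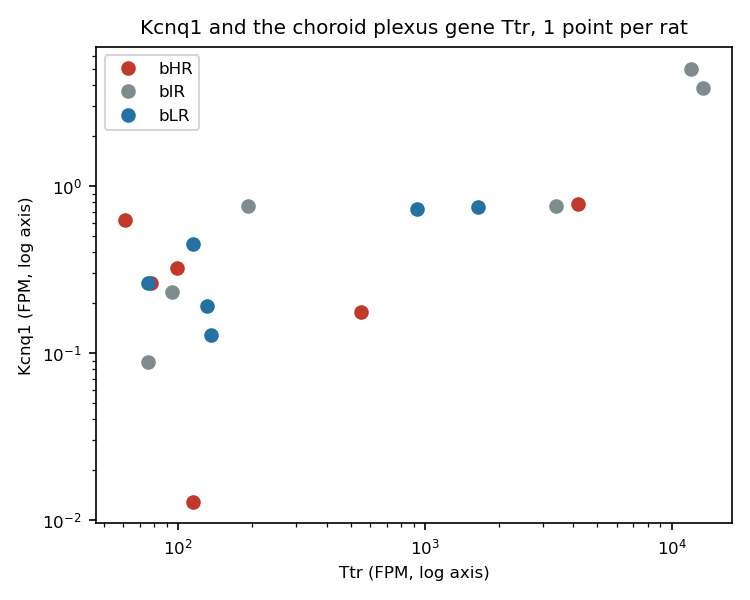
Level of Kcnq1 (vertical axis) against that of the choroid plexus gene Ttr (horizontal axis) in FPM, both on log axes, 1 point per rat coloured by line. The 2 bIR rats at the upper right (5.04 and 3.84 FPM of Kcnq1) stand apart from the other 16, and the lowest bHR point is the library with 0 Kcnq1 reads.

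Genes whose products bind these channels were read from the same fit. Of 22 such partners 21 were measured, and none was called between bHR and bLR, with 15 lower in bHR and a median of -0.05. Dpp6, the transmembrane partner of Kv4, averaged 268 ± 32.5 FPM in bLR, 257 ± 31.7 in bIR and 239 ± 33.1 in bHR (SD, n = 6), a difference between bHR and bLR of -0.17 (-0.38 to 0.04). Its relative Dpp10 lay on the other side, at 41.6 ± 8.41 FPM in bLR, 43.0 ± 7.27 in bIR and 50.2 ± 6.16 in bHR, with a difference of 0.28 (0.03 to 0.54, limma adjusted p = 0.466). The spread within lines was about as large as the distance between them for both. Dlg4, the scaffold that clusters Kv1 and Kv4 channels, averaged 699.9 ± 30.9 FPM in bHR and 754 ± 32.2 in bLR, a difference of -0.11 (-0.21 to -0.00, limma adjusted p = 0.528). Of the 43 sodium, calcium and HCN channel genes, 27 had a lower mean in bHR than in bLR, with a median of -0.12 and none called. Of the 5 genes set aside, Kcnj16 and Kcnj10, the glial rectifiers, had differences of 0.30 and 0.20 with limma adjusted p values of 0.458 and 0.508, and 4 of the 5 had a higher mean in bHR.

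Several channel genes lie beside each other in the RefSeq gene order, among them Kcna5, Kcna1 and Kcna6 in a row, Kcna3 beside Kcna2, and Kcnj6 beside Kcnj15. Neighbours did not share a direction throughout. Between bHR and bLR the differences were 0.03, -0.12 and 0.07 for Kcna5, Kcna1 and Kcna6, 0.39 and 0.04 for Kcna3 and Kcna2, and -0.18 and -0.32 for Kcnj6 and Kcnj15, each with an interval that covered 0. Whether reads were counted by strand is not given in the sources used here, so reads of overlapping genes on opposite strands may not have been kept apart. Kcnd2 lies next to the RefSeq gene Kcnd2l1, and reads shared between them were not tested.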

How the data were processed

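RNA from whole hippocampus of 18 rats was sequenced with paired ends from a stranded polyA kit, per the labels' protocols. Reads were aligned to Rnor_6.0 with Subread and counted per gene with featureCounts, per the labels' design text, which states that genes without a symbol or without 10 counts in at least 4 samples were removed. The deposited values are log2 FPM from limma's voom, with an offset of 0.5 reads, in R 3.2.2 per the submitters' processing notes. All values could be turned back into whole reads (100% within 0.02 of a whole number), and by these reads 1258 of the deposited genes had 10 reads in fewer than 4 libraries.

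Every gene was fitted in limma 3.58.1 (R 4.3.3) as 3 line means over 18 rats, with empirical Bayes moderation and a trend on mean level, two-sided, with Benjamini-Hochberg adjustment over 20909 genes. Exact two-sided permutation tests of the difference in mean log2 value stand beside it. The code of the fit was run on simulated counts, drawn independently with the same dispersion for every gene. Such a run checks the code and does not bear on shifts shared by many genes of a rat. Libraries correlated at 0.962 to 0.981 and none was dropped. The replicates are separate rats, and the rat numbers are not shared between lines. Members and lists were chosen with earlier results of these data known. Genes named were those without overlap between lines, those of smallest unadjusted p under 0.05 at a mean log2 FPM of at least 0 (up to 10 between bHR and bLR, up to 6 in each other comparison), a set of channels described in hippocampus and the 3 of largest spread. Some genes under this rule are not reported here. Alternatives changed the filter, scaling, offset, weights, covariates and rats. Promoter windows came from RefSeq (GRCr8). Protein sequences were not used here.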

Additional observations from a re-analysis of the deposited data

Results flagged for a closer look

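In 105 groups of 6 rats (35 named genes in 3 lines), 3 held a rat set apart from the other 5 by a gap above the 95% limit of Dixon's test, as a share of the line's range. Chance alone puts about 5% of groups past that limit. Kcnip3 in bHR had its lowest value in rat HR_38, at 68.1 FPM, with the next at 86.4. Kcnma1 in bIR had its highest value in rat IR_149, at 72.6 FPM, with the next at 54.3. Kcnt1 in bIR had its highest value in the same rat, at 19.8 FPM, with the next at 14.2.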

How the results depend on the processing

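The count of channel genes called was 0 in all 3 comparisons under every alternative run, with smallest adjusted p values of 0.102, 0.429 and 0.338. Calls over all genes between bHR and bLR ranged from 41 (depth as covariate) to 194 (array weights), beside 93. Among medians over the 82 genes, that between bHR and bLR was 0.10 with the pan-neuronal covariate, and that between bIR and bHR 0.21 without the 4 libraries with Ttr above 11 on the log2 scale, where 14 in place of 4 channel genes had an unadjusted p under 0.05 (8.62% in place of 5.81% of all genes). The latter median was -0.05 with the pan-neuronal covariate and -0.0040 with the thalamus covariate. Between bIR and bLR, 27 (without the 4 Ttr libraries) to 56 (thalamus covariate) genes were lower in bIR, beside 41. Leaving out each rat moved the medians from -0.12 (without rat LR_48) to -0.03 (without rat HR_2), from 0.01 (without rat HR_2) to 0.11 (without rat HR_26) and from -0.04 to 0.04.

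Some named genes without a call, with differences between bHR and bLR of -0.18 (Kcnj6) to 0.20 (Kcnk3), changed sign, and the cause was not tested. With the pan-neuronal covariate the values were 0.18 for Kcna1, 0.17 for Kcnc1, 0.081 for Kcnd3, 0.066 for Kcnq3, 0.15 for Kcnh2, 0.11 for Kcnj3, 0.18 for Kcnj6, 0.15 for Kcnj9, 0.15 for Kcnj11 and 0.24 for Kcnma1. Leaving out each rat gave -0.20 to 0.031 for Kcna1, -0.038 to 0.13 for Kcna2, -0.094 to 0.0023 for Kcnc1, -0.0031 to 0.054 for Kcnc2, -0.0082 to 0.16 for Kcnk9, -0.15 to 0.081 for Kcnma1, -0.055 to 0.050 for Kcnmb4, -0.10 to 0.31 for Kcnh8 and -0.016 to 0.38 for Kcnk3. Kcnc2 was -0.00068 with median centring and -0.0021 without the 4 Ttr libraries, and Kcnk9 -0.00010 with array weights. Kcnma1 was 0.066 with depth as covariate and 0.011 without rats HR_2 and LR_48. Kcnmb4 was 0.00094 with voom weights, 0.0048 with array weights, 0.00039 with the choroid plexus covariate, 0.00015 with the thalamus covariate and 0.012 without the 4 Ttr libraries. Kcnh8 was -0.045 without those libraries. Median centring put 55.2% of all genes and 56 of 82 channel genes lower in bHR. No paired analysis was possible because rat numbers are not shared between lines. The 3 fits with marker lists or without rat HR_2 and rat LR_48 were chosen after seeing the data.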
